A study of Mus musculus with 23 samples.

Results

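The comparison described here sets bulk tumors grown from B16F10 cells edited with the guide RNA sg495 against bulk tumors grown from control B16F10 cells. Its members were every RNA-seq library labeled as bulk tumor with sg495 or with control, 2 and 2, which makes 4 of the 23 samples of the series. B16F10 is a pigmented melanoma line from C57BL/6 mice. The control cells are labeled WT and the sg495 cells NR2F6 KO. The edited cells were a pool that had taken up a Cy3-labeled guide with Cas9 protein and were not described as clones, and the hosts were male C57BL/6 mice 6 to 8 weeks old. In a bulk tumor the melanoma cells were thus the edited cells, whereas leukocytes, fibroblasts and vessels came from the host. The labels do not say whether the 2 libraries of a group came from 2 tumors, so the spread between them may be partly technical. Bulk tumors of a further guide, sg492, were used for comparison, and sorted and cultured tumor cells served to tell which genes the melanoma cells themselves express.

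Nr2f6 encodes an orphan nuclear receptor of the COUP-TF family that binds DNA and mostly represses transcription. In T cells it is known to restrain cytokine genes. A melanoma that grows under the skin is a mixture of tumor cells with macrophages, monocytes, dendritic cells, T cells, natural killer cells, fibroblasts and endothelium, and bulk RNA averages over all of them. Interferon-γ from lymphocytes acts on tumor and host cells alike, and 85 interferon and MHC genes are held apart below as 1 list. Other interferon targets may remain outside that list, so shares given outside it are not free of them.

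Expression is given as TPM, which divides reads by gene length and sets every library to the same total. Genes averaging 1 TPM or more over the 4 libraries were compared as log2(TPM + 1), 13584 genes in all. In limma fitted over the 6 bulk tumor libraries, calls required p under 0.05 after Benjamini-Hochberg adjustment together with a 1.5-fold difference or more. Only 4 genes were called, 0.0294% of those tested, although 2159 had an unadjusted p below 0.05. When the spread was instead estimated over 18 libraries, sorted and cultured cells included, 539 genes were called higher (3.97%) and 35 lower (0.258%). Genes were therefore also described as separated when both sg495 libraries lay beyond both controls and the fold was at least 1.5. This is a description with no test, and 6.31% of all genes (857) were separated higher and 1.16% (158) lower. After quantile normalization these counts were 620 and 301. Of the 158 genes separated lower, 25 lie on chromosome 8, which carries Nr2f6 (15.8%, against 5.25% of all genes tested). The 2 controls were unlike: the second had less TPM than the first in 668 of the 857 genes separated higher (77.9%) and in 58.9% of all genes tested, so values against each control are given where the result turns on them. The mitochondrial share of TPM ran from 4.73% to 6.70%, the latter in the second control, and what this share contributed was not tested.

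Nr2f6 itself had 25.83 and 25.24 TPM in the controls, 22.31 and 23.31 with sg492 and 17.22 and 15.76 with sg495. The sg495 libraries were the lowest but not at 0, and the gene was not called (log2 fold change −0.60 with a standard error of 0.0900, adjusted p = 0.0818 in limma). The melanocyte gene Pmel, which encodes the fibril protein of melanosomes, was at 2852.42 and 2592.85 TPM in the controls and 2730.29 and 2834.73 with sg495. The groups overlapped for this gene, which was abundant in all 4 libraries.

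Among the called genes, C4b (ENSMUSG00000073418, chromosome 17 from 34728380 to 34743882 on GRCm38) encodes complement component C4, which is cleaved to tag surfaces for phagocytosis. It had 17.75 and 16.37 TPM in the controls, 32.51 and 29.01 with sg492 and 53.11 and 53.83 with sg495. The 3 groups did not overlap, and the rise with sg495 came to a log2 fold change of 1.59 (SE 0.0914, limma adjusted p = 0.0171). Over 14 alternatives its adjusted p ran from 0.00145 to 0.174 and was below 0.05 in 9. The call was lost in the other 5, namely with no expression filter, with a replicate block, without the second control and without either sg495 library. Sorted tumor cells had C4b at 39.8 and 38.22 TPM with sg495 against 7.84 and 3.95 in the controls, so the difference was seen there too. C4a, a near-identical neighbor named here after its values were seen, stayed below 4 TPM in all 6 libraries, and reads shared by the pair may be split between them.

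Gm22431 and Gm22077, both small RNA genes, were called as well. They passed the filter only through sg495, and with no expression filter 0 genes were called. Gm22431, a miscellaneous RNA on chromosome 14, was listed at 0 in both controls and both sg492 libraries and had 8.62 and 8.19 TPM with sg495. Gm22077, a small nucleolar RNA on chromosome 15, was listed at 0 in both controls but had 5.77 and 4.95 TPM in the sg492 tumors and 6.12 and 7.56 in those of sg495. TPM does not show how many reads lie behind these values, and no fold is given against a group listed at 0.

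**Figure D1:**
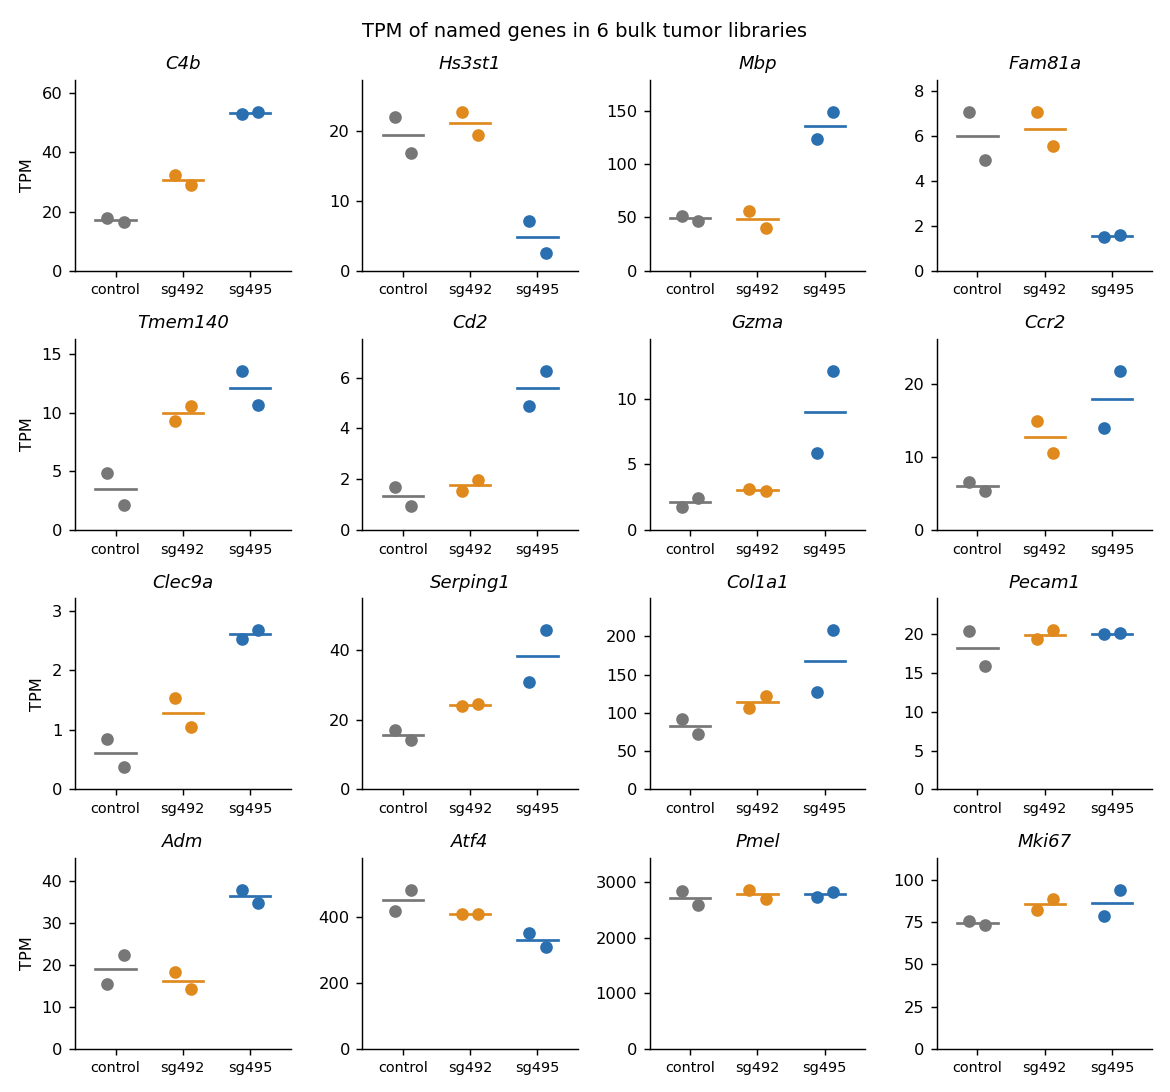
TPM (vertical axes, from 0) of 16 genes in the 6 bulk tumor libraries, with 1 point per library and a bar at the group mean. C4b stands apart in all 3 groups, Hs3st1, Mbp and Fam81a stand apart with sg495, and Pecam1 and Pmel overlap.

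Genes were next divided by whether melanoma cells express them, taken as a mean of at least 1 TPM over the control sorted and control cultured libraries, none of which is a bulk tumor. Of 1458 genes below that level, and so largely host genes, 553 were separated higher with sg495 (37.9%) and 20 lower (1.37%). Of 12126 genes that melanoma cells express, 304 were separated higher (2.51%) and 138 lower (1.14%). The median log2 fold change was 0.44 among the first and 0.05 among the second, against 0.06 over all genes tested.

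The filter lets in genes that only the sg495 tumors hold at a level, since 269 of the 1458 host genes had a control mean below 1 TPM. With these left out, 429 of 1189 were separated higher (36.1%). In the other direction, 81 of the 1458 had an sg495 mean below 1 TPM and passed through the controls. Without the interferon and MHC list the share separated higher was 36.2% (513 of 1417). Over all host genes it was 32.3% without the second control and 47.5% without the first. Each of those last shares rests on 1 control, so fewer libraries had to be cleared. Host genes as a class took 0.954% and 0.657% of the TPM in control, 1.04% and 1.23% with sg492, and 1.28% and 1.41% with sg495. Of the 1458, 1085 were also below 1 TPM in sorted tumor cells with sg495, and 443 of those were separated higher (40.8%). The rest reached 1 TPM in those cells, so edited tumor cells may hold part of their RNA in bulk tumors. Bulk RNA cannot tell more host cells from more RNA of these genes per cell.

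A total of 34 gene lists beside the interferon list were then compared. They were written by hand with earlier results of these data known, and members that 2 lists share count in both. Of the genes in the lists only C4b was called, so their counts are of separated genes. Over all genes tested, 6.31% were separated higher and 1.16% lower. Most tested members of the immune and stromal lists, lysosome and TGF-β aside, were host genes. For those lists the closer background is the share of host genes, 37.9% higher and 1.37% lower, with a median log2 fold change of 0.44. Against it, neutrophil and mast cell genes (4 of 11 higher) were near the background and endothelial genes (3 of 23) below it. Chemokine genes (15 of 30) and fibroblast genes (17 of 34) were above it, but by less than against all genes.

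**Figure D2:**
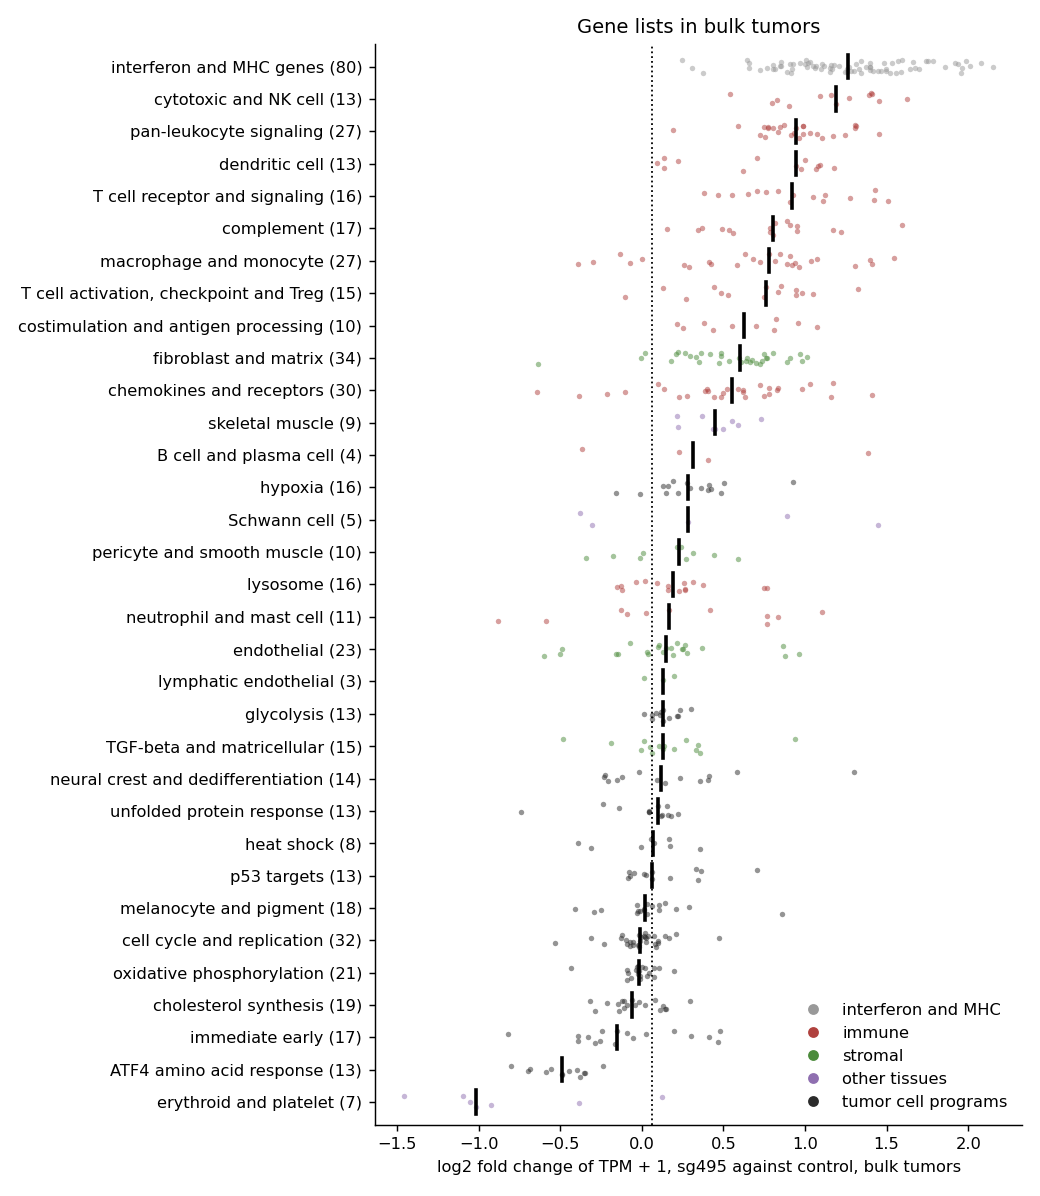
log2 fold change of TPM + 1 with sg495 against control in bulk tumors (horizontal axis) for each tested gene of 33 lists with at least 3 such genes (rows, number of genes in parentheses). Each point is a gene, thick bars are list medians and the dotted line is the median of all genes tested. Most immune lists lie to the right, but the neutrophil and lysosome lists, with medians of 0.17 and 0.19, lie nearer the line. Most tumor cell programs lie near it, with hypoxia at 0.29, and the ATF4 and erythroid lists lie to the left.

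Among immune cells, the lists of cytotoxic cells and T cells come first. In the list of cytotoxic and NK cell genes, 13 of 20 passed the filter and 12 were separated higher (median log2 fold change 1.19). Of the 13, 4 had a control mean below 1 TPM and passed through sg495, and without them 8 of 9 were separated higher (median 1.39). Gzma, a granule protease of killer lymphocytes, had 1.74 and 2.46 TPM in the controls, 3.12 and 2.98 with sg492 and 5.89 and 12.1 with sg495 (log2 fold change 1.63, adjusted p = 0.102). Its sg495 libraries lay above the 4 others. Klrk1, which encodes the activating receptor NKG2D, had 8.26 and 10.2 TPM with sg495 against 3.89 and 2 in the controls (log2 fold change 1.41, adjusted p = 0.0961). Klrd1, the CD94 subunit that pairs with NKG2 receptors, had 3.05 and 1.2 TPM in the controls and 7.55 and 6.33 with sg495. Gzmb was more variable, at 11.4 and 24.32 TPM with sg495 against 8.96 and 3.2 in the controls. Of the 7 members under the filter, the NK cell receptor gene Ncr1, named after its values were seen, had 0.14 and 0.15 TPM in the controls and 1.35 and 1.81 with sg495. Both sg495 libraries also lay above both controls for Gzmd, Klrb1c, Eomes and Fasl, whereas Gzme and Gzmf overlapped between the groups.

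Of 20 genes of the T cell receptor and its signaling, 16 passed, and 11 of them were separated higher (median 0.92). With the 5 genes left out whose control mean was below 1 TPM, Cd27 and Cd3d among them, it was 7 of 11 (median 0.93). Cd2, an adhesion molecule of T and NK cells, had 1.7 and 0.96 TPM in the controls, 1.53 and 1.99 with sg492 and 4.88 and 6.26 with sg495 (log2 fold change 1.51, standard error 0.241, adjusted p = 0.0830). Only the sg495 libraries were high. Cd27, a costimulatory receptor of naive and memory T cells, had 1.77 and 4.19 TPM with sg495 against 0.56 and 0.27 in the controls. The constant segment Trac of the T cell receptor α chain had 4.31 and 1.41 TPM in the controls, 3.81 and 3.57 with sg492 and 6.96 and 10.55 with sg495. The other constant segment named, Trbc2, had 6.68 and 3.54 TPM in the controls and 9.88 and 17.71 with sg495.

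The CD3 chain gene Cd3d differed less, with 1.9 and 2.65 TPM with sg495 against 1.37 and 0.55 in the controls. Cd3e overlapped between the groups, at 2.19 and 0.55 TPM in the controls and 1.79 and 3.35 with sg495. The summed TPM of the whole list was 47.7 and 23.7 in control, 41.7 and 46.6 with sg492, and 67.0 and 97.0 with sg495. The filter used sg495 and control but not sg492, so no count of genes between the guides is read from this list. The difference between guides was not called for any gene here. Without the second control the median of the list was 0.50, and without the first it was 1.35.

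Receptors of activated and exhausted T cells were part of a further list, in which 15 of 19 genes passed and 9 were separated higher (median 0.76). Of these 15, 4 passed only through sg495, Ctla4, Pdcd1 and Tigit among them, and of the other 11 genes 5 were separated higher (45.5%, median 0.53). The inhibitory receptor gene Ctla4 had 0.48 and 0.63 TPM in the controls, 0.8 and 0.89 with sg492 and 2.71 and 1.78 with sg495. Pdcd1, which encodes PD-1, had 2.78 and 2.5 TPM with sg495 against 1.3 and 0.48 in the controls, but sg492 was as high, at 2.12 and 2.94 TPM. Il2rb, a receptor chain for IL-2 and IL-15, had 3.73 and 1.98 TPM in the controls and 7.42 and 9.49 with sg495. Tigit, a further inhibitory receptor, had 1.41 and 2.31 TPM with sg495 against 0.64 and 0.31 in the controls. The 4 genes under the filter include the regulatory T cell factor Foxp3, named after its values were seen, at 0.25 and 0.11 TPM in the controls and 0.68 and 0.43 with sg495.

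For myeloid cells, 27 of 28 macrophage and monocyte genes passed and 17 were separated higher (median 0.78). This median was 0.51 without the second control and 0.99 without the first. Both sg492 libraries lay above both controls for 19 of the genes (30.7% of all genes tested did). With sg492 the median log2 fold change was 0.53 for this list and 0.27 for host genes as a class. Ly6c2, a marker of inflammatory monocytes with a close paralog, had 17.44 and 8.35 TPM in the controls, 30.9 and 34.98 with sg492 and 31.47 and 44.3 with sg495 (log2 fold change 1.55, adjusted p = 0.102). The chemokine receptor gene Ccr2, which brings monocytes into tissue, had 6.6 and 5.34 TPM in the controls, 14.91 and 10.55 with sg492 and 13.98 and 21.73 with sg495. For both genes the guides overlapped and both were above control. Adgre1, which encodes the macrophage antigen F4/80, had 13.57 and 8.05 TPM in the controls, 17.74 and 19.09 with sg492 and 23.18 and 32.38 with sg495. Fcgr4, an activating Fc receptor gene, had 31.29 and 38.46 TPM with sg495 against 19.26 and 8.03 in the controls.

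The summed TPM of the macrophage list differed less between groups than these members, with 1624 and 1267 in control, 1593 and 1756 with sg492, and 1684 and 1785 with sg495. Of its 27 tested genes, 22 had a log2 fold change above 0, and the lowest value was −0.39. A value above 0 was held by 63.3% of all genes tested and 83.0% of host genes, and 23 of the 27 were host genes. Both sg495 libraries lay below both controls for 1 member, but by under 1.5-fold, so no member was separated lower. Of 28 genes of signaling in all leukocytes, 27 passed and 25 were separated higher (median 0.95). Among them, Cybb, the catalytic subunit of the phagocyte oxidase, had 9.65 and 5.4 TPM in the controls and 19.03 and 20.01 with sg495. Lcp2, an adaptor of antigen receptors, had 11.37 and 15.22 TPM with sg495 against 5.44 and 4.09 in the controls. Cd52, a small surface glycoprotein of leukocytes, had 42.85 and 23.14 TPM in the controls and 75.75 and 83.26 with sg495. In all 3 genes the groups did not overlap.

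Dendritic cells take up tumor antigen and present it to T cells. Of 17 of their genes, 13 passed and 9 were separated higher (median 0.94), or 5 of 9 (median 0.71) among those with a control mean of 1 TPM or more. Clec9a, the receptor for dead cells on cross-presenting dendritic cells, had 0.85 and 0.37 TPM in the controls, 1.54 and 1.04 with sg492 and 2.53 and 2.67 with sg495 (adjusted p = 0.107). Siglech, a marker of plasmacytoid dendritic cells, had 1.48 and 1.98 TPM with sg495 against 0.23 and 0.34 in the controls, and Cd209a, a lectin of monocyte-derived dendritic cells, had 0.74 and 1.15 TPM in the controls and 2.44 and 3.78 with sg495. The groups did not overlap for any of the 3. These levels are low, and the control means of Clec9a, Siglech and Cd209a were all below 1 TPM, so they entered the comparison through sg495. Irf8, a transcription factor of dendritic cells and macrophages, had 14.26 and 20.75 TPM with sg495 against 11.44 and 4.85 in the controls.

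Granulocytes and B cells were described by shorter lists. Of 19 neutrophil and mast cell genes, 11 passed, 4 were separated higher and 1 lower, with a median of 0.17. Cma1 and Retnlg passed only through sg495, and of the other 9 genes 2 were separated higher and 1 lower (median 0.026). The neutrophil protein gene S100a9 had 5.07 and 1.25 TPM in the controls and 0.96 and 1.06 with sg495. Its partner S100a8 overlapped, with 1.69 and 2.41 TPM with sg495 against 6.32 and 1.82 in the controls. Only 4 of 16 B cell genes passed, too few to set against the other lists, and 2 of them did so through sg495. Ighm, the heavy chain of IgM, had 4.13 and 2.83 TPM in the controls and 8.97 and 12.43 with sg495, whereas Cd79a overlapped at 1.61 and 1.87 TPM with sg495 against 3.26 and 1.92 in the controls. Control tumor cells themselves held Cd79a at a mean of 1.56 TPM. The granule protease gene Cma1 of mast cells had 0.89 and 0.96 TPM in the controls and 1.95 and 2.65 with sg495, and the neutrophil gene Retnlg had 2.61 and 1.86 TPM with sg495 against 0.71 and 0.9 in the controls. Irg1, an enzyme that makes itaconate in activated myeloid cells, had 2.93 and 1.18 TPM in the controls and 4.15 and 6.67 with sg495.

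Complement genes are made by macrophages, fibroblasts and tumor cells alike. All 17 that passed (of 20) had a log2 fold change above 0, as 63.3% of all genes and 83.0% of host genes did. Of the 17, 10 were host genes, and 11 were separated higher (median 0.80, or 0.52 without the second control). C4b was described above. The C1 inhibitor gene Serping1 had 17.18 and 14.06 TPM in the controls, 24 and 24.55 with sg492 and 30.75 and 45.63 with sg495 (log2 fold change 1.22, adjusted p = 0.0818). C3, the central component of the cascade, had 9.72 and 8.68 TPM in the controls, 13.61 and 14.92 with sg492 and 17.67 and 27.27 with sg495. Both genes took the same order of groups as C4b, with no overlap. C1s1, a protease of the first component, had 8.95 and 9.11 TPM in the controls and 15.3 and 22.14 with sg495, and C1qa, which macrophages make, had 126.49 and 122.71 TPM with sg495 against 87.06 and 51.23 in the controls.

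Of 33 chemokine and receptor genes, 30 passed, 15 were separated higher and 1 lower (median 0.55). Among the 25 with a control mean of 1 TPM or more, 12 were separated higher (median 0.52). Ccl8, which attracts monocytes and T cells, had 88.17 and 79.58 TPM in the controls, 105.77 and 136.47 with sg492 and 180.3 and 164.16 with sg495 (log2 fold change 1.03, standard error 0.130, adjusted p = 0.0818). Both sg495 libraries lay above the 4 others. Xcl1, which lymphocytes release to attract cross-presenting dendritic cells, had 3.11 and 3.54 TPM with sg495 against 1.13 and 0.76 in the controls. Ccl2 had 35.66 and 27.98 TPM in the controls and 44.26 and 45.95 with sg495, a log2 fold change of 0.50. The neutrophil attractant Cxcl2 was the member separated lower, at 0.67 and 0.72 TPM with sg495 against 1.46 and 1.84 in the controls, although sg492 ranged from 0.78 to 4.27 TPM. Cxcl2 passed the filter through the controls.

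For costimulation and antigen processing, 10 of 14 genes passed and 5 were separated higher (median 0.63), 1 of which, Pdcd1lg2, passed through sg495. Ctss, the protease that trims the invariant chain, had 185.44 and 116.9 TPM in the controls, 232.1 and 283.11 with sg492 and 302.86 and 271.97 with sg495. Pdcd1lg2, which encodes the PD-1 ligand PD-L2, had 0.52 and 0.43 TPM in the controls and 2.53 and 1.73 with sg495. The costimulatory receptor Cd40 had 5.71 and 4.21 TPM with sg495 against 3.3 and 1.6 in the controls. Its sg492 libraries lay within the range of sg495, at 5.36 and 4.87 TPM. Cd86, a ligand of CD28, had 2.67 and 2.49 TPM in the controls and 5.63 and 4.94 with sg495. Of 16 lysosome genes, 2 were separated higher, namely Lyz2 and Ctsh. Lyz2, the lysozyme of macrophages, had 413.88 and 443.49 TPM with sg495 against 280.26 and 226.13 in the controls, and Ctsh had 58.16 and 40.7 TPM in the controls and 78.27 and 86.5 with sg495. The lysosomal protease gene Ctsb differed by under 1.5-fold, with 307.16 and 285.64 TPM with sg495 against 284.28 and 213.68 in the controls.

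**Figure D3:**
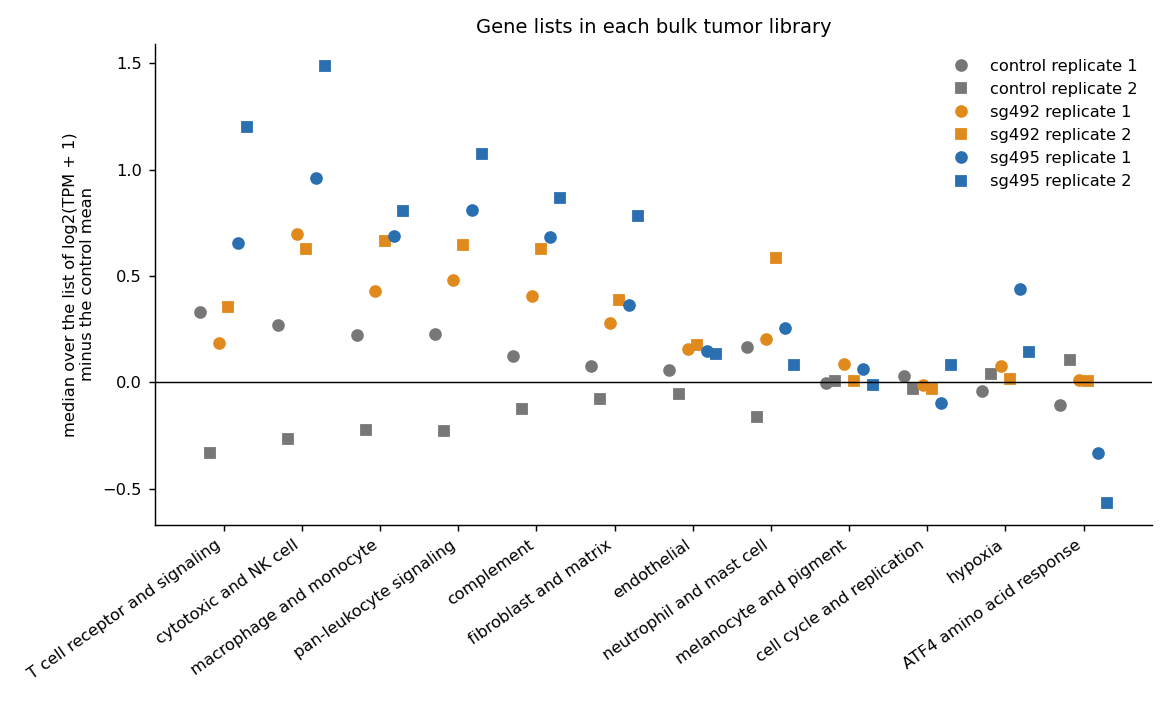
Median over each list of log2(TPM + 1) minus the mean of the 2 controls (vertical axis) in the 6 bulk tumor libraries, colored by group with replicates 1 and 2 as circles and squares. In the T cell list sg492 lies at 0.19 and 0.35, near the first control at 0.33, and sg495 at 0.65 and 1.20. In the macrophage list both guides lie above both controls, and the ATF4 list is low with sg495, at −0.33 and −0.57.

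In stroma, the fibroblast and matrix list had all 34 genes tested, 17 separated higher and 1 lower (median 0.60). Col1a1, a chain of type I collagen, had 92.22 and 72.17 TPM in the controls, 105.72 and 121.42 with sg492 and 126.62 and 207.81 with sg495 (log2 fold change 0.98, adjusted p = 0.124). Col3a1, the chain of type III collagen, had 188.82 and 168.81 TPM in the controls and 256.74 and 478.09 with sg495. The other type I chain gene, Col1a2, had 123.65 and 197.86 TPM with sg495 against 88.95 and 66.6 in the controls. For these collagens the second sg495 library was far above the first. Without it the median of the list was 0.36, and without the first sg495 library it was 0.78. Dpt, a matrix protein of dermal fibroblasts, followed the same order with 6.15 and 5.79 TPM in the controls and 9.33 and 15.56 with sg495. The cytokine gene Il6 was the member separated lower, at 0.72 and 0.83 TPM with sg495 against 1.87 and 1.66 in the controls. Its sg495 mean was below 1 TPM, so Il6 passed the filter through the controls.

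Vessels gave other values. Of 27 endothelial genes 23 passed, 3 were separated higher and 1 lower, and the median was 0.15. Pecam1, the pan-endothelial adhesion molecule, was at 20.35 and 15.96 TPM in the controls, 19.41 and 20.5 with sg492 and 20.06 and 20.09 with sg495. The 3 separated higher were adhesion molecules for leukocytes. Of these, Vcam1 had 6.13 and 3.52 TPM in the controls and 10.65 and 9.52 with sg495, and Icam1 had 7.03 and 9.34 TPM with sg495 against 5.45 and 2.82 in the controls. Icam2, the last of them, had 14.08 and 8.06 TPM in the controls and 21.27 and 19.3 with sg495. Vwf, the clotting factor of endothelium, had 13.09 and 15.62 TPM in the controls, 18.7 and 18.76 with sg492 and 10.67 and 7.71 with sg495, but tumor cells also held it at a mean of 7.33 TPM.

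Among 10 tested genes of pericytes and smooth muscle (of 13), Rgs5, a pericyte marker, was the 1 separated higher, at 23.14 and 26.59 TPM with sg495 against 15.89 and 16.45 in the controls. Of 15 genes of TGF-β and matricellular proteins (of 16), only Tgfbi was separated higher, with 27.73 and 16.85 TPM in the controls and 42.09 and 42.83 with sg495. Tgfb1 itself overlapped, at 47.72 and 51.99 TPM with sg495 against 51.33 and 41.49 in the controls. The lymphatic marker Lyve1 was near 2 to 3 TPM in all groups, at 2.5 and 2.18 TPM in the controls and 2.23 and 3.13 with sg495.

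Other tissues in the sample also varied. The summed TPM of 9 erythroid and platelet genes was 1804 and 595 in control and 761 and 321 with sg495, so the 2 controls differed by more than the groups. Hba-a1 had 93.75 and 41.17 TPM with sg495 against 203.96 and 83.19 in the controls. The sum of 9 skeletal muscle genes was 226 and 152 in control and 199 and 315 with sg495, and Acta1 had 76.29 and 45.47 TPM in the controls and 62.25 and 103.3 with sg495. The keratinocyte marker Krt5 was at 0.23 and 0 TPM with sg495 against 0 and 0.19 in the controls, below its 4.02 and 1.89 TPM with sg492. The fat marker Adipoq had 0.83 and 0 TPM in the controls and 1.5 and 1.28 with sg495. What blood, muscle or fat in the tumor pieces contributed to the other lists was not tested.

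Melanoma cell programs were next. Of 18 melanocyte and pigment genes 1 was separated higher (median 0.02). That gene was Cited1, a transcriptional co-regulator, with 40.22 and 34.99 TPM in the controls, 38.01 and 38.81 with sg492 and 76.08 and 62.45 with sg495 (log2 fold change 0.86, standard error 0.117, adjusted p = 0.0818). Cited1 had 107.19 and 136.47 TPM with sg495 against 57.48 and 59.28 in the controls in sorted tumor cells. Mitf, the lineage transcription factor, overlapped at 377.02 and 363.23 TPM in the controls and 400.53 and 228.13 with sg495. Of 32 genes of cell cycle and replication 0 were separated in either direction, and Mki67, a proliferation marker, had 78.69 and 94.18 TPM with sg495 against 75.54 and 73.36 in the controls.

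Axl, a receptor tyrosine kinase of dedifferentiated melanoma that macrophages and dendritic cells also express, had 14.54 and 8.8 TPM in the controls, 20.66 and 19.09 with sg492 and 30.04 and 28.78 with sg495 (adjusted p = 0.0833). It was the only separated gene among 14 tested of neural crest and dedifferentiation. In sorted tumor cells Axl had 1.53 and 2.15 TPM in the controls and 13.72 and 14.53 with sg495.

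A list that went the other way was that of the ATF4 response, which turns on amino acid import and synthesis when amino acids are short. All 13 genes had a log2 fold change below 0, with a median of −0.49, and 3 were separated lower. Both sg495 libraries lay below both controls for all 13 (14.3% of all genes did) and below both sg492 libraries for all 13 (19.2% did). Atf4 had 420.25 and 483.74 TPM in the controls, 409.13 and 410.21 with sg492 and 352.15 and 310.45 with sg495 (log2 fold change −0.45, standard error 0.0920, adjusted p = 0.102). Trib3, a pseudokinase target, had 82.4 and 39.62 TPM with sg495 against 87.57 and 115.43 in the controls. The first sg495 library was thus close to the lower control and the second far below it.

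Chac1, which degrades glutathione, had 44.26 and 61.13 TPM in the controls and 36.54 and 28.07 with sg495. Slc7a11, the cystine importer, had 8.47 and 11.94 TPM in the controls, 11.9 and 14.1 with sg492 and 8.36 and 3.97 with sg495. None of the 13 was called. Over the 14 alternatives to the fit, the median of the list lay between −0.57 and −0.33, the latter without the second sg495 library. In sorted tumor cells the median log2 fold change of these 13 genes was −0.20.

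Of 16 hypoxia genes, 14 had a log2 fold change above 0, as did 63.3% of all genes, and 1 was separated. The median was 0.29, and it was 0.14 without the first sg495 library and 0.44 without the second. That gene, Adm, which encodes adrenomedullin, had 15.52 and 22.41 TPM in the controls, 18.24 and 14.32 with sg492 and 37.94 and 34.72 with sg495 (log2 fold change 0.92, adjusted p = 0.102). The first sg495 library was the high one for Car9, with 244.98 and 164.92 TPM with sg495 against 144.52 and 154.52 in the controls, and for Slc2a1, with 86.68 and 85.79 TPM in the controls and 119.87 and 94.76 with sg495. In the unfolded protein response, 1 of 13 genes was separated lower, namely Herpud1, an ER-associated degradation factor on chromosome 8 with 78.16 and 78.37 TPM with sg495 against 117.96 and 146.56 in the controls. The chaperone Hspa5 of the same list overlapped at 966.37 and 1107.6 TPM in the controls and 1008.09 and 1124.75 with sg495. Ier2, on chromosome 8 as well, was the only immediate early gene separated, with 25.44 and 24.72 TPM with sg495 against 42.17 and 48.26 in the controls.

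For the remaining programs, medians were 0.13 for glycolysis, −0.06 for cholesterol synthesis, 0.07 for heat shock, −0.02 for oxidative phosphorylation and 0.06 for p53 targets. Leaving out 1 library gave 0.021 to 0.24 for glycolysis. All 13 glycolysis genes had a log2 fold change above 0, as 63.3% of all genes did, and 0 were separated. For cholesterol synthesis the medians were then −0.15 to 0.056 and for heat shock −0.26 to 0.24, so no direction is read from those lists. Among the genes of these programs, Hmgcs1, Ndufs1 and Hspa1a overlapped or differed by under 1.5-fold. Of the p53 targets with a control mean of 1 TPM or more, 0 of 12 were separated. Fas, the death receptor, passed only through sg495 and was separated, at 0.9 and 0.58 TPM in the controls and 1.13 and 2.75 with sg495. The cell cycle inhibitor Cdkn1a had 147.11 and 118.51 TPM with sg495 against 100.8 and 107.32 in the controls.

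Among separated genes that melanoma cells express, Prph had the largest difference upward of the protein-coding genes. This holds outside the interferon list and with symbols beginning with Gbp, Ifi, Irg or Oas left out. Prph, an intermediate filament of neurons, had 11.69 and 4.18 TPM in the controls and 35.14 and 23.4 with sg495, but sg492 lay in the same range, at 35.91 and 23.85 TPM. Mbp, which encodes myelin basic protein and the Golli proteins, had 51.76 and 46.66 TPM in the controls, 56.5 and 40.38 with sg492 and 123.22 and 149.39 with sg495 (log2 fold change 1.45, standard error 0.172, adjusted p = 0.0818). Sorted tumor cells had Mbp at 112.26 and 110.54 TPM with sg495 against 48.58 and 39.8 in the controls. Pmp22, a myelin gene that melanoma cells also express, had 15.23 and 14.11 TPM in the controls and 25.48 and 30.82 with sg495.

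Tapbpl, which edits the peptides of MHC class I, had 27.91 and 17.89 TPM with sg495 against 10.35 and 5.75 in the controls. Tmem140 had 4.87 and 2.17 TPM in the controls, 9.33 and 10.57 with sg492 and 13.57 and 10.66 with sg495, and Phf11d had 20.02 and 7.52 TPM in the controls and 36.82 and 30.83 with sg495. For all of these both guides lay above control. Gm9732 had 4.82 and 5.55 TPM with sg495 against 1.45 and 0.81 in the controls. Gm2004 had 6.43 and 4.66 TPM in the controls and 16.32 and 17.93 with sg495, but its sg492 libraries were at 13.14 and 0.03 TPM, and reads shared with close copies make it uncertain.

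Downward, Hs3st1, a heparan sulfate sulfotransferase, had 21.89 and 16.83 TPM in the controls, 22.7 and 19.38 with sg492 and 7.04 and 2.47 with sg495 (log2 fold change −1.94, adjusted p = 0.102). Fam81a had 7.03 and 4.92 TPM in the controls, 7.07 and 5.55 with sg492 and 1.48 and 1.57 with sg495 (log2 fold change −1.45, standard error 0.209, adjusted p = 0.0818). In both genes sg492 overlapped control, and only sg495 was low. Lmo1, a LIM-domain transcription cofactor, had 0.35 and 0.47 TPM with sg495 against 1.99 and 3.76 in the controls, and Cck, which encodes the peptide cholecystokinin, had 5.61 and 4.81 TPM in the controls and 2.05 and 0.76 with sg495. Gm20458 was listed at 0 in both sg495 libraries and at 10.31 and 3.16 TPM in control, and Gm10260 had 0.93 and 0 TPM with sg495 against 3.49 and 2.82 in the controls. Lmo1, Gm20458 and Gm10260 passed the filter through the controls. Gm11007 has values identical to those of its neighbor Gm2007 in all 6 libraries (10.93 and 17.47 TPM in control, 2.86 and 7.79 TPM with sg495), so the reads cannot be given to either.

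The host genes named by size began with Gm12185, at 4.91 and 0.79 TPM in the controls and 13.31 and 11.31 with sg495. Apolipoprotein L genes followed, of which Apol6 had 3.21 and 0.84 TPM in the controls, 10.54 and 5.31 with sg492 and 8.56 and 9.25 with sg495. Apol9a and Apol9b, which are near-identical copies, had log2 fold changes of 1.95 and 1.82, with control libraries from 3.96 to 20.33 TPM and sg495 libraries from 34.88 to 45.34 TPM. In sorted tumor cells the log2 fold changes of this pair were 3.53 and 3.33, so sorted tumor cells with sg495 held them as well.

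Serpina3g, an inhibitor of cathepsins in lymphocytes, had 12.42 and 4.99 TPM in the controls, 23.08 and 21.93 with sg492 and 28.56 and 31.73 with sg495 (log2 fold change 1.79, adjusted p = 0.102). Plbd1, a phospholipase of myeloid granules, had 15.19 and 7.4 TPM in the controls, 24.79 and 22.86 with sg492 and 37.22 and 34.29 with sg495 (adjusted p = 0.0939). Fgl2, a prothrombinase of macrophages and regulatory T cells, had 25.76 and 35.19 TPM with sg495 against 14.2 and 5.95 in the controls. For Gm12185, the 3 Apol genes, Serpina3g, Plbd1 and Fgl2 the second control was the lowest of the 6 libraries. In the other direction, Abcc2, a drug efflux pump, had 2.33 and 3.32 TPM in the controls, 1.8 and 1.15 with sg492 and 0.78 and 0.43 with sg495. Abcc2 passed the filter through the controls. Tmem53, Sorbs2, Ggnbp1 and Fitm1 made up the rest of the low host genes named by size, with controls from 1.22 to 2.69 TPM and sg495 libraries from 0.32 to 1.32 TPM.

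The promoters of separated genes were read from RefSeq on GRCm38.p6, as 250 bases before to 50 after the start, and matched by symbol to 9542 of the 13584 genes (70.2%). Of elements known from interferon-responsive promoters, the GAS was searched as TTCNNNGAA and the core of the ISRE, to which IRF factors bind, as TTTC, any 2 bases and TTTC, both on either strand. The GAS was in 8.47% of all 27025 promoters and the ISRE core in 3.49%, and 139 promoters held both. Outside the interferon list, 10.2% of the 501 promoters of genes separated higher held a GAS and 9.98% an ISRE core, against 6.94% and 2.90% of those of all genes tested. Of the 501, 330 belong to host genes, and of these 11.5% held a GAS and 11.5% an ISRE core, against 9.54% and 7.37% of the 828 promoters of all tested host genes outside the list. Of 62 promoters of genes separated lower, 2 held a GAS and 4 an ISRE core. A match is a description of the letters and no sign of binding. The half-site AGGTCA of nuclear receptors was in 14.2% of the promoters of genes separated higher outside that list, 12.9% of those separated lower and 11.8% of those of all genes tested there. The promoter of C4b was not printed.

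Promoters of 4 named genes with such matches, 1 that melanoma cells express and 3 host genes, are shown 5′ to 3′ with the match in capitals.
Tmem140: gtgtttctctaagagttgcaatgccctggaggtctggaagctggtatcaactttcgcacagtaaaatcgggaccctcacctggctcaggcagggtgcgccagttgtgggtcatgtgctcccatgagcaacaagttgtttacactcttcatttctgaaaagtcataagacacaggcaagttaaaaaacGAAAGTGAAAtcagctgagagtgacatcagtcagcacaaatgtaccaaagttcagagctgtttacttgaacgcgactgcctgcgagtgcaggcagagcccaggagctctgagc
Serpina3g: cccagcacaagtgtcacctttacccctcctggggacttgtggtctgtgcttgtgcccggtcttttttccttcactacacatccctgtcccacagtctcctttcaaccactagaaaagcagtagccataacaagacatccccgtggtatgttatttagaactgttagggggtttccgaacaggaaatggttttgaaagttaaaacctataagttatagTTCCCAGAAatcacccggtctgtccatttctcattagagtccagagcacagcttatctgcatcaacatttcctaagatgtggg
Irf8: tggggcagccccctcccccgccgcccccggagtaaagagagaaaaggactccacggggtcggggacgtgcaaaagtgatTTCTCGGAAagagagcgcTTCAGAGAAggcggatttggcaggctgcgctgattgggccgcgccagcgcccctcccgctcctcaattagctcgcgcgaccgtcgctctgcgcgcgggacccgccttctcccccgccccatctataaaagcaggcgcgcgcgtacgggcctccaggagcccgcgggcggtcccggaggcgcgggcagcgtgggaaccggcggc
Cybb: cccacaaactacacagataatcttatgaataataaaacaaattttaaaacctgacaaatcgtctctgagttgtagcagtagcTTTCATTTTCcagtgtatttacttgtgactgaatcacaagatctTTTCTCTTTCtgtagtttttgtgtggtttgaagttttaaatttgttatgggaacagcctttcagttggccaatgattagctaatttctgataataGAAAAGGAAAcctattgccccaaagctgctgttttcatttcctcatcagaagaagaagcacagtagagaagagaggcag
Tmem140 (chr6:34862896-34863195, plus strand) has 1 ISRE core from base −63 to −54, counted from the start. Serpina3g (chr12:104235897-104236196, plus strand) has 1 GAS from −33 to −25. Irf8 (chr8:120736108-120736407, plus strand) has 2 GAS matches, from −171 to −163 and from −153 to −145. Cybb (chrX:9469275-9469574, minus strand) has 3 ISRE cores that do not overlap, the nearest from −29 to −20.

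Whether the sg495 contrast in bulk tumors differed from that in sorted tumor cells was tested as an interaction in limma over 18 libraries. It was called for 29 genes (0.213% of those tested, 16 to 279 genes under the alternatives), 22 with a larger and 7 with a smaller log2 fold change in bulk tumors. The class II gene H2-Aa, named after its values were seen, had a log2 fold change of 1.40 in bulk tumors and 5.21 in sorted cells. Bulk tumors already held H2-Aa at 182.03 and 81.66 TPM in control, and 302.8 and 345.53 TPM with sg495. Among the genes named above by rule, only Cd2 and Gm22431 had an adjusted p below 0.05 for the interaction. Cd2 had a log2 fold change of 1.51 in bulk tumors and of 0.15 in sorted cells, where its 4 libraries were at 0, 0, 0.13 and 0.09 TPM. Sorting depleted stromal cells, and with Cd2 close to 0 in all 4 a difference in sorted cells was not measurable.

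**Figure D4:**
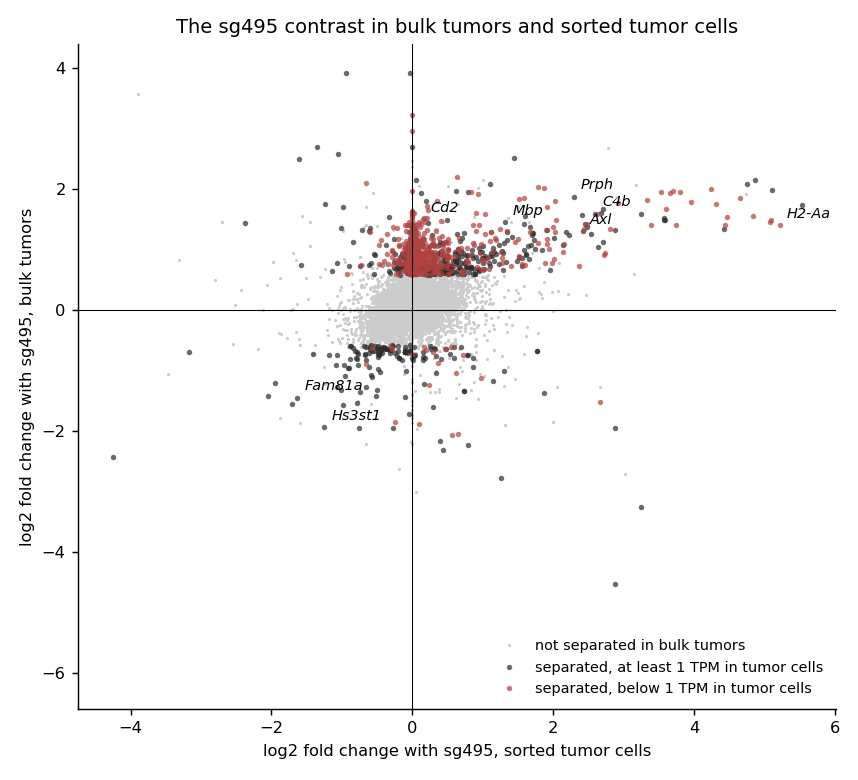
log2 fold change with sg495 in bulk tumors (vertical axis) and in sorted tumor cells (horizontal axis) for the 13584 genes tested, 1 point per gene. Separated genes below 1 TPM in tumor cells include some near 0 on the horizontal axis, as for Cd2, and some far above 0, as for Apol9a and Apol9b. C4b, Axl, Mbp and Prph are above 0 and Fam81a and Hs3st1 below 0 on both axes.

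Against sg492, 0 genes were called for sg495 by limma (smallest adjusted p = 0.0513), with 1377 at an unadjusted p below 0.05. Of the 857 genes separated higher with sg495, both sg492 libraries also lay above both controls in 655 (76.4%), and of the 158 separated lower, both lay below both controls in 72 (45.6%). Over all genes tested, both sg492 libraries lay above both controls in 30.7%, and the share below both was not counted. The comparisons of the guides with control share the 2 control libraries, so the values are set side by side and not read as agreement.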

How the data were processed

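RNA-seq libraries of bulk tumors were compared, beside those of cultured cells and of tumor cells purified with magnetic beads. Per the labels, poly(A) RNA was made into strand-specific libraries and sequenced single-end to a depth of 23 to 31 (in units of 1e+06 reads). The submitters' processing notes name cutadapt 2.3, STAR 2.7.0d and RSEM 1.3.1, with mouse genome mm10, and the authors deposited the TPM of each library that was used here. Estimated counts were not used here. TPM holds no depth, so no counting interval is given.

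Genes averaging 1 TPM or more over the 4 control and sg495 bulk libraries were kept. The limma package 3.58.1 (R 4.3.3) was applied to log2(TPM + 1), with 1 mean per group, a trended prior, 2-sided tests and Benjamini-Hochberg adjustment. A fold change is on that scale and understates the change of low genes. The comparison of bulk with sorted cells was fitted over 18 libraries. The scripts were tested on simulated data. An exact permutation test of 2 against 2 cannot give a p below 0.333. Members, lists and tests were chosen with earlier results of these data known, so list counts are descriptions.

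Genes were named by rule: every called gene, Nr2f6, the 8 largest protein-coding differences in each direction among genes that tumor cells express and among those they do not (at 1 TPM), both outside the interferon list, and for each list up to 4 separated members and its first gene. Symbols beginning with Gbp, Ifi, Irg or Oas were also left out of the choice by size, which was made among separated genes. Other names were chosen after their values were seen. Some results that the rule names are not reported here. Of 665 list entries 663 matched the table, and 99.1% of its genes are in GENCODE M21. Replicate numbers did not pair the samples, so no block was used in the main comparison. Alternatives were another pseudocount, other filters, scalings and fits, and leaving out each library in turn.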

Additional observations from a re-analysis of the deposited data

Results flagged for a closer look

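The interaction test of the sg495 effect between bulk tumors and sorted tumor cells passed its threshold for Cd2. The difference of log2 fold changes, bulk minus sorted, was 1.36 (limma interaction, adjusted p = 0.0487), and both bulk sg495 libraries lay above both bulk controls. Sorting depleted stromal cells, and the sorted libraries held Cd2 at 0 and 0 TPM in control and 0.13 and 0.09 with sg495. An effect on Cd2 was not measurable at these levels in sorted cells, so the value does not show that its response differs. The number of genes past the threshold ran from 16 to 279 over the alternatives.

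The effect on the small RNA gene Gm22431 also differed between the 2 kinds of sample. Its difference on the log2(TPM + 1) scale was 3.23, with the gene listed at 0 in the bulk and sorted controls, so this value depends on the pseudocount and is no fold.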

How the results depend on the processing

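The counts of called genes rest on few residual degrees of freedom. Beside the 3 genes called higher and 1 lower, there were 0 and 0 with no expression filter, 0 and 0 with the replicate block, 1 higher at a mean of at least 5 TPM, 0 lower in the fit of 4 libraries, 0 lower without trend, and 539 and 35 in the fit of 18 libraries. Leaving out 1 library gave 0 to 161 higher and 0 to 19 lower, with 161 without the first control and 0 without the second.

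Separated genes numbered 456 higher and 67 lower at a mean of at least 5 TPM and 4313 and 1949 with no fold threshold. Those lower came to 240 with a pseudocount of 0.1, 301 after quantile normalization and 257 to 318 without 1 library. Genes that differed between guides came to 82 in the fit of 18 libraries, 1 without trend and 0 to 3 without 1 library. Genes whose effect differed between bulk and sorted cells came to 18 with a pseudocount of 0.1, 136 with no filter, 16 at 5 TPM, 17 with the replicate block, 162 without trend and 17 to 279 without 1 library. With 1 library left out, fewer libraries have to be cleared for a gene to count as separated, so that condition is easier to meet. What else moved these counts was not tested.

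The medians of 21 of 33 lists and the log2 fold changes of 109 of 117 named genes kept their sign in every alternative run. The median turned or reached 0 for neutrophil, pericyte, lymphatic, TGF-β, Schwann cell, pigment, cell cycle, cholesterol, heat shock, immediate early, oxidative phosphorylation and p53 genes. At a mean of at least 5 TPM the neutrophil and lymphatic lists held no tested gene and have no value. The sign turned for 8 genes. Leaving out 1 library gave −1.27 to 0.10 for S100a8 (0.10 without the first control), −0.019 to 0.31 for Pecam1 and −0.043 to 0.26 for Tgfb1 (both lowest without the second control), −0.70 to 0.11 for Mitf and −0.047 to 0.31 for Lyve1 (both turned without the second sg495 library). It gave −0.17 to 0.091 for Hmgcs1, which was also above 0 without the second control (0.06), −0.057 to 0.14 for Hspa5, which was also below 0 without the second sg495 library (−0.04), and −0.20 to 0.25 for Fos (lowest without the first sg495 library). Under median-of-ratios scaling the log2 fold change of Hspa5 was −0.025 and the log2 fold change of Fos −0.037, and after quantile normalization the log2 fold change of Lyve1 was −0.055 and that of Fos −0.068.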
